A study of Mus musculus with 12 samples.

Results

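Fatty acid oxidation, ketone body metabolism and the targets of the nuclear receptor PPARalpha were followed as 36 named genes in the mouse ileum. The genes were taken by symbol, and the list was drawn up with earlier results of these data known. Each of the 36 symbols matched a single gene among the 54838 Ensembl genes of the deposited count table. The low-count filter kept 33 of the 36 for testing, of 15938 genes kept in all, and dropped Cyp4a10, Cyp4a31 and Fgf21. RNA was measured in 12 ileum libraries of adult C57BL/6J mice that carried no genetic modification. The mice drank normal water or water with 25 mM ZnSO4 for 7 days, were then injected with 200 µg dexamethasone (Dex, a synthetic glucocorticoid) or with PBS alone, and were sampled 2 h after the injection. This gave 4 groups of 3 mice, named water + PBS, water + Dex, ZnSO4 + PBS and ZnSO4 + Dex, the last of which received both agents. Wild-type mice of this strain were bought as females, per the study's methods, and nothing in the labels pairs mice between groups.

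Long-chain fatty acids are activated to acyl-CoA, carried into mitochondria by the carnitine shuttle and shortened there by repeated cycles of dehydrogenation, hydration, a further dehydrogenation and thiolysis, while peroxisomes shorten the very long chains first. PPARalpha, a receptor that binds fatty acids and pairs with RXR on DNA, switches on many of these genes in fasting liver and also in the absorptive enterocytes of the small intestine. Ketone bodies, made from the acetyl-CoA of this pathway, circulate as fuel when glucose is short, and glucocorticoids rise in the same fasting state.

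The libraries held between 10760132 and 11827487 assigned reads. Levels are given as normalised read counts, that is, reads scaled to the mean effective library size after TMM normalisation. The 36 genes together took between 0.305% and 0.396% of the reads of a library. Enterocyte markers were abundant, with a summed level of 12 markers between 22962 and 34340 CPM (counts scaled to the effective library size) in 11 libraries. In ZnSO4 + Dex replicate 2 that sum was 13197 CPM, and this library was the lowest of its group for 23 of the 33 tested genes. The library water + PBS replicate 1 was the highest of its group for 27 of the 33 tested genes and for 34.2% of all genes tested, so results for these genes are also given without it wherever that changed a call. Whole ileum was sequenced, so that fewer cells of a type and less RNA per cell cannot be told apart. The summed level of 10 B cell markers ran from 15.5 to 715 CPM over the libraries.

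Dex changed a small number of these genes, 2 of them by a large factor, and none of the core enzymes of the mitochondrial cycle passed the test. In water mice, 5 of the 33 tested genes (15.2%) rose and 2 (6.1%) fell at an adjusted p under 0.05 in edgeR's quasi-likelihood test, against 5.41% and 4.51% of all genes tested. Ppara itself, the lipase inhibitor Angptl4, the peroxisome gene Pex11a, the coactivator Ppargc1a and the ketone body enzyme Bdh1 were the 5 that rose, and the lipid droplet gene Plin2 and the carnitine transferase gene Cpt1a were the 2 that fell. In ZnSO4 mice, 6 (18.2%) rose and 1 (3.0%) fell, against 6.65% and 7.08% of all genes. The 6 were the same 5 genes and Eci2, an isomerase for unsaturated chains, and the gene that fell was Plin2. The median log2 fold change (LFC) over the 33 genes was 0.04 in water mice and 0.07 in ZnSO4 mice, where the medians over all genes tested were -0.01 and 0.01. The median in water mice was 0.21 without water + PBS replicate 1. The Dex comparisons in water and in ZnSO4 mice share no library, while each ZnSO4 comparison shares 1 group with each Dex comparison.

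**Figure D1:**
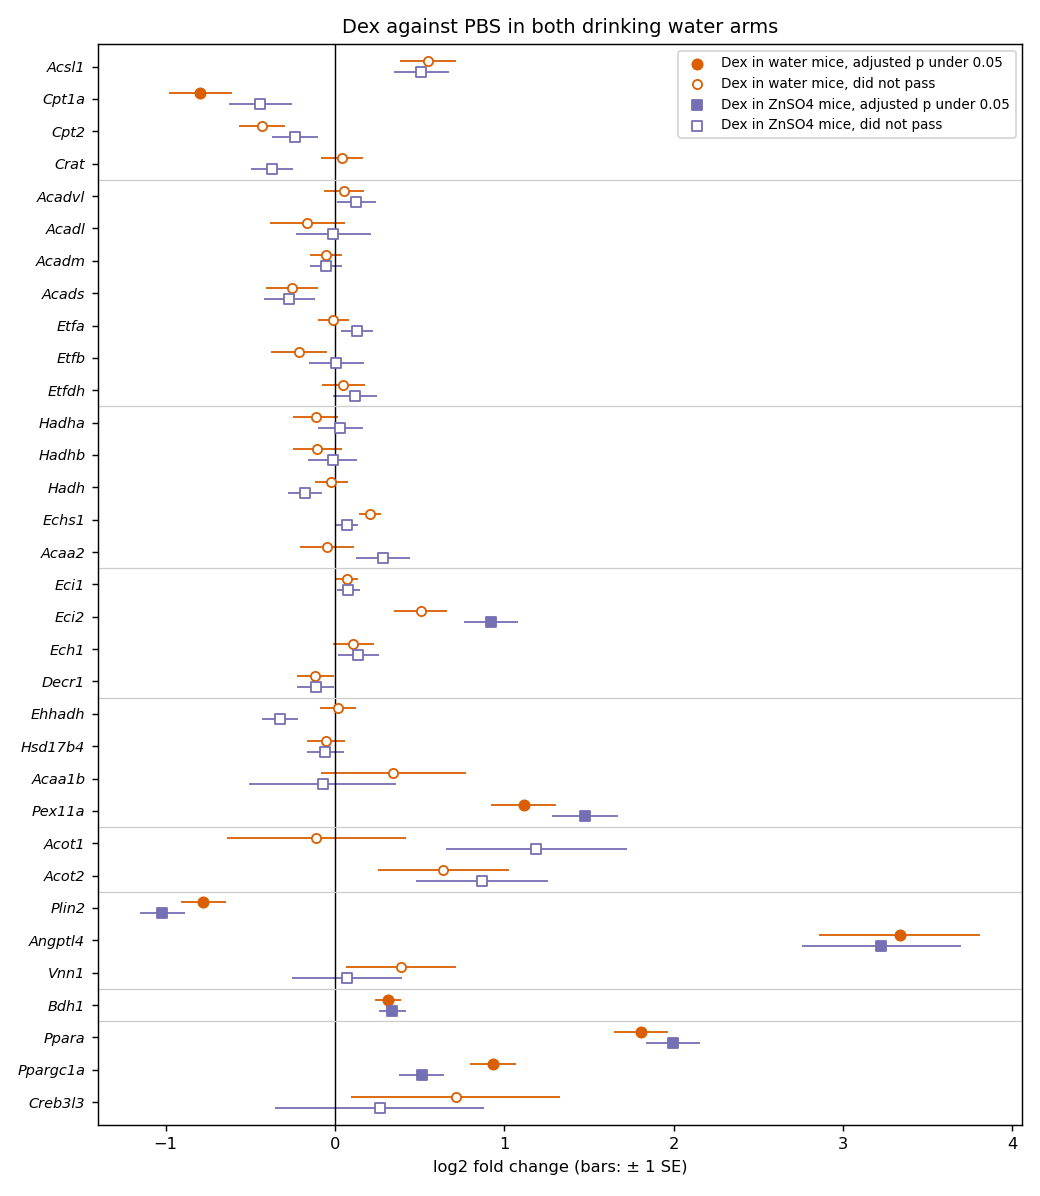
LFC of Dex against PBS for the 33 tested genes, in order of their role with grey lines between roles, with circles for water mice and squares for ZnSO4 mice; bars are ± 1 SE and filled symbols mark an adjusted p under 0.05. Ppara and Angptl4 lie far to the right in both arms, from 1.81 to 3.33, while the dehydrogenase and thiolase genes cluster around 0.

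The stretch before the RefSeq start site (GRCm38.p6) is printed for the genes with the 4 smallest adjusted p for Dex over both arms, Ppara, Plin2, Pex11a and Angptl4, since these carry the response. Angptl4 is named only. Each run is the 250 bases before the start, 5′ to 3′ on the strand of the gene, at chr15:85735526-85735775 on the plus strand for Ppara and, on the minus strand, at chr4:86670060-86670309 for Plin2 and chr7:79743132-79743381 for Pex11a. The Ppara run lies inside the gene as GENCODE annotates it, from an earlier start. Capitals mark a match to the PPAR response element known as DR1.
Ppara: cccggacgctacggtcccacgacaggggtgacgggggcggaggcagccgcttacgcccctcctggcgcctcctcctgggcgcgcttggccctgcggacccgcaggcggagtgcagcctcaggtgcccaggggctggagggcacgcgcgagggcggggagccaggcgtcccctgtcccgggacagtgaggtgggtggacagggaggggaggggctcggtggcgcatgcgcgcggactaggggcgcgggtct
Plin2: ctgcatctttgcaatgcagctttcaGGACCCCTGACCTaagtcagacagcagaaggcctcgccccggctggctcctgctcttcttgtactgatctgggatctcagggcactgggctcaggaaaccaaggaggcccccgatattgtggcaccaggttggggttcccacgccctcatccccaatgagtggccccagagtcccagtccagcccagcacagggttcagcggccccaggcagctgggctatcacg
Pex11a: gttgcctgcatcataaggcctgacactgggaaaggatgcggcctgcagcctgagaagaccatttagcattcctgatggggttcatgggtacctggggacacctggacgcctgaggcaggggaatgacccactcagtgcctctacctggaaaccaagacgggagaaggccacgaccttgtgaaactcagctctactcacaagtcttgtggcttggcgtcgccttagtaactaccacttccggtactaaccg

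Promoters in the RefSeq table, from 250 bases before to 50 bases after a start, were found for 28 of the 36 genes. The DR1 element was searched as AGGTCANAGGTCA on both strands with up to 2 mismatches in its 12 fixed bases. It was matched in 4 of the 28 genes (14.3%), namely Plin2, Creb3l3, Echs1 and Etfa, and in 4.4% of all genes in the table. The match in Plin2 lay on the opposite strand with its first base 225 bases before the start. The other matches are shown for comparison, in capitals between flanking bases and 5′ to 3′ on the strand of the gene. They lay at chr10:81092774-81092814 in Creb3l3, chr7:140116478-140116518 in Echs1 and chr9:55512294-55512334 in Etfa, all on the minus strand. The Creb3l3 match lies inside the gene as GENCODE annotates it, and 2 RefSeq promoters were searched for that gene.
Creb3l3: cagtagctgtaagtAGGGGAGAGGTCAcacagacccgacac
Echs1: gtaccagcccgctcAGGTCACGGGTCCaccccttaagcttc
Etfa: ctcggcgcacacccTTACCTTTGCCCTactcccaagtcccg
Of these 4 genes only Plin2 passed the test for Dex. The glucocorticoid response element, searched as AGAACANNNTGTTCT on both strands with up to 2 mismatches in its 12 fixed bases, was matched in 0 of the 28 genes and in 2.1% of all genes. Its 6-base core AGAACA, which is part of the longer element, was matched without mismatch in Acot1, Creb3l3 and Hadh (10.7%), and in 21.3% of all genes.

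Of the 4 regulators and hormones, Ppara showed the smallest p of the list. Ppara (ENSMUSG00000022383, chr15:85734983-85802819) stood at 335, 212 and 277 normalised counts in the 3 water + PBS mice and at 930, 933 and 1023 in the water + Dex mice. In ZnSO4 + PBS mice it stood at 252, 264 and 230, and in ZnSO4 + Dex mice at 1190, 852 and 936. Every Dex mouse was thus far above every PBS mouse in both arms. The LFC was 1.81 ± 0.16 (SE, n = 3 per group), or 3.50-fold, in water mice (adjusted p = 2.8e-05, edgeR) and 2.00 ± 0.16, or 3.99-fold, in ZnSO4 mice (adjusted p = 1.3e-05, edgeR). The first value was 1.97 without water + PBS replicate 1. ZnSO4 gave LFCs of -0.14 ± 0.16 in PBS mice and 0.04 ± 0.15 in Dex mice, neither of which passed.

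Ppargc1a (ENSMUSG00000029167, chr5:51454250-51567726) encodes PGC-1alpha, a coactivator that binds PPARalpha and drives mitochondrial genes, and it passed for both agents. Its counts were 233, 220 and 197 in water + PBS, 415, 356 and 469 in water + Dex, 343, 376 and 387 in ZnSO4 + PBS, and 606, 436 and 536 in ZnSO4 + Dex. Both single-agent groups lay above all water + PBS mice, and the mice given both agents had the highest mean, 526, though they overlapped the water + Dex mice. Dex raised it by an LFC of 0.93 ± 0.13 in water mice (adjusted p = 0.001, edgeR). In ZnSO4 mice the LFC of Dex was 0.51 ± 0.13 (adjusted p = 0.024, edgeR). The latter call was lost without ZnSO4 + PBS replicate 1 or 2 (adjusted p = 0.092 and 0.058) and without ZnSO4 + Dex replicate 1 or 3 (adjusted p = 0.1 and 0.059). ZnSO4 raised it in PBS mice by an LFC of 0.77 ± 0.13 (adjusted p = 0.0099, edgeR), and in Dex mice its LFC was 0.35 ± 0.13 (adjusted p = 0.17).

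PGC-1alpha is also abundant in muscle, so muscle markers are given beside it. The summed level of 7 smooth muscle markers was 1326 to 1737 CPM in water + PBS and 1560 to 2799 CPM in ZnSO4 + PBS. It was 1660 to 1764 CPM in water + Dex and 1889 to 2750 CPM in ZnSO4 + Dex, without overlap. All 7 had an LFC above 0 with ZnSO4 in both arms, with medians of 0.35 in PBS mice and 0.39 in Dex mice, and 0 of the 7 passed in edgeR. The summed level of 6 skeletal muscle markers, of which the myosin genes Myh1 and Myh4 were at 0 throughout, was 42.1 to 179 CPM in the water groups and 10.6 to 16.7 CPM in the ZnSO4 groups. The skeletal difference lay in the actin gene Acta1, at 396 to 1958 counts in the water groups and 31.7 to 92.3 in the ZnSO4 groups, while Ckm and Mylpf, the other markers tested, passed in neither ZnSO4 comparison. Their part in the result was not tested. Creb3l3, a liver and gut transcription factor that works with PPARalpha, ranged from 218 to 1741 counts over the 12 mice and passed in no comparison. Its lowest values were in ZnSO4 + Dex replicate 2 and ZnSO4 + PBS replicate 3. Fgf21, the fasting hormone of the liver, had at most 1 read in any library and was not tested.

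Among the PPARalpha targets of lipid handling, Angptl4 rose and Plin2 fell, both in each arm. Angptl4 (ENSMUSG00000002289, chr17:33773750-33781830) encodes a secreted inhibitor of lipoprotein lipase. It stood at 576, 393 and 145 normalised counts in water + PBS, 3036, 4417 and 3790 in water + Dex, 344, 385 and 921 in ZnSO4 + PBS, and 5179, 4060 and 6217 in ZnSO4 + Dex. The lowest Dex mouse was several times higher than the highest PBS mouse of the same arm. The LFC was 3.33 ± 0.48, or 10.1-fold, in water mice (adjusted p = 0.00095, edgeR) and 3.23 ± 0.47, or 9.36-fold, in ZnSO4 mice (adjusted p = 0.00077, edgeR). It was the largest change in the list in both arms. The LFC in water mice was 3.80 without water + PBS replicate 1.

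Plin2 (ENSMUSG00000028494, chr4:86648386-86670060), whose product coats lipid droplets, moved in the opposite direction. Its counts were 873, 748 and 611 in water + PBS, 385, 480 and 438 in water + Dex, 802, 833 and 888 in ZnSO4 + PBS, and 371, 469 and 405 in ZnSO4 + Dex. All 6 Dex mice lay below all 6 PBS mice. The LFC was -0.78 ± 0.13, or 1.71-fold lower, in water mice (adjusted p = 0.0029, edgeR) and -1.02 ± 0.13, or 2.03-fold lower, in ZnSO4 mice (adjusted p = 0.00037, edgeR). The first became -0.65 without water + PBS replicate 1 (adjusted p = 0.011). Vnn1, a pantetheinase gene of the gut epithelium that responds to PPARalpha, had an LFC of 0.39 ± 0.32 with Dex in water mice (adjusted p = 0.53) and passed in no comparison.

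Angptl4 and Plin2 are also expressed by fat cells, so adipocyte markers are given beside them. The summed level of 8 adipocyte markers was 46.0 to 248 CPM in water + PBS, 182 to 538 in water + Dex, 94.6 to 457 in ZnSO4 + PBS and 64.7 to 333 in ZnSO4 + Dex. These ranges overlapped in both arms. No marker was at 0 in every library, but Ucp1 had 1 read in all. All 7 tested markers had an LFC above 0 with Dex in water mice, with a median of 1.48. In ZnSO4 mice 6 of the 7 had an LFC below 0, with a median of -0.65. In edgeR 0 of the 7 passed in either arm, and 2 had an unadjusted p under 0.05 in water mice. Adipoq, which encodes the fat hormone adiponectin, ran from 1.07 to 396 counts in the ZnSO4 + Dex mice, where Angptl4 ran from 4060 to 6217. The summed level of the enterocyte markers was 22962 to 26049 CPM in water + PBS and 30588 to 34340 in water + Dex, and 24167 to 29517 in ZnSO4 + PBS against 13197 to 33730 in ZnSO4 + Dex. The part of these cell types in the Dex results was not tested.

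Hepatocyte markers, of which none was at 0 throughout, are given as well because liver cells carry many of these genes. The summed level of the 7 markers was 36.5 to 71.8 CPM in water + PBS, 36.6 to 507 in water + Dex, 19.8 to 43.2 in ZnSO4 + PBS and 24.1 to 287 in ZnSO4 + Dex. The highest values were those of water + Dex replicate 3 and ZnSO4 + Dex replicate 2. All 7 markers had an LFC above 0 with Dex in both arms, with medians of 1.94 in water mice and 1.57 in ZnSO4 mice, and 0 of the 7 passed in edgeR, with 1 and 4 at an unadjusted p under 0.05. Ppara, Angptl4, Pex11a and Plin2 passed for Dex in both arms in edgeR when 1 of these 2 libraries was left out. The 2 were not left out together, and the part of liver cells in the Dex results was not tested.

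**Figure D2:**
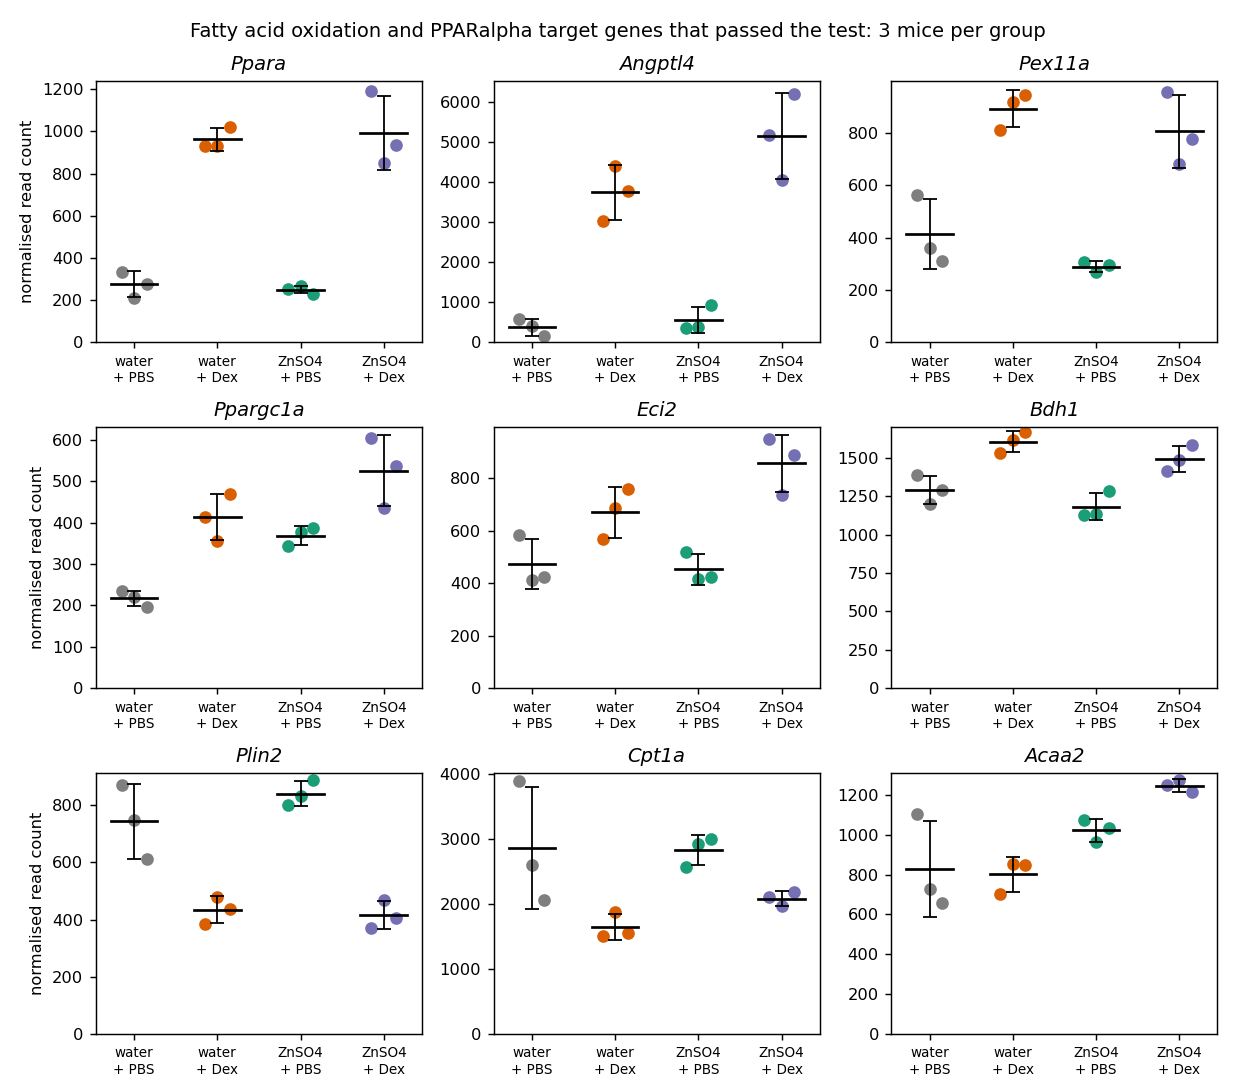
Normalised read counts (linear axes from 0) of the 9 genes that passed in at least 1 of the 4 comparisons, by group; each point is a mouse, lines are means and bars ± 1 SD of 3 mice. Ppara, Angptl4 and Pex11a split the Dex groups from the PBS groups, Plin2 does so downwards, and Ppargc1a is lowest in water + PBS at 197 to 233 counts.

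Of the 4 peroxisomal genes only Pex11a passed in any of the 4 comparisons in edgeR with all 12 libraries, for Dex in both arms. Pex11a (ENSMUSG00000030545, chr7:79735957-79743131) encodes a membrane protein of peroxisome elongation and division. It stood at 564, 360 and 312 counts in water + PBS, 813, 919 and 947 in water + Dex, 306, 266 and 295 in ZnSO4 + PBS, and 958, 682 and 777 in ZnSO4 + Dex. No Dex mouse overlapped a PBS mouse of either arm. The LFC was 1.12 ± 0.19 in water mice (adjusted p = 0.0031, edgeR) and 1.48 ± 0.20 in ZnSO4 mice (adjusted p = 4e-04, edgeR). The first LFC was 1.41 without water + PBS replicate 1, its highest control.

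The enzymes of the peroxisomal cycle did not pass for Dex in edgeR with all 12 libraries. Ehhadh passed in ZnSO4 mice with DESeq2 (adjusted p = 0.045), and in edgeR without water + Dex replicate 2 or ZnSO4 + Dex replicate 3. Ehhadh and Hsd17b4, which encode the multifunctional enzymes of that cycle, had LFCs of 0.02 and -0.05 in water mice and of -0.33 ± 0.11 (adjusted p = 0.064, edgeR) and -0.06 in ZnSO4 mice. With ZnSO4, Hsd17b4 had LFCs of 0.37 ± 0.11 in PBS mice and 0.36 ± 0.11 in Dex mice (adjusted p = 0.081 and 0.093, edgeR). Both passed without ZnSO4 + Dex replicate 2 (adjusted p = 0.027 and 0.02, edgeR). In DESeq2 the adjusted p was 0.041 in PBS mice and 0.06 in Dex mice. Acaa1b, a peroxisomal thiolase gene, was low at 10.2 to 42.1 counts, and 40.0% of its 31-base stretches also occur in Acaa1a, where reads that map to both were not counted, so its counts are uncertain. The omega oxidation genes Cyp4a10 and Cyp4a31 were not tested. Cyp4a10 had 4, 2 and 1 reads in water + PBS, 0, 0 and 24 in water + Dex, 0 in each ZnSO4 + PBS mouse and 5, 16 and 1 in ZnSO4 + Dex. The 24 and 16 reads were in the 2 libraries with the highest hepatocyte markers. Cyp4a31 had at most 1 read per library.

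In the carnitine shuttle the gene for its rate-limiting enzyme fell with Dex. Cpt1a (ENSMUSG00000024900, chr19:3322334-3385733) moves the acyl chain from CoA to carnitine at the outer mitochondrial membrane. It stood at 3897, 2601 and 2066 counts in water + PBS, 1504, 1879 and 1550 in water + Dex, 2567, 2917 and 2997 in ZnSO4 + PBS, and 2098, 1964 and 2184 in ZnSO4 + Dex. The Dex mice were below the PBS mice of their arm in every case, by a narrow margin in water mice apart from the high control of replicate 1. The LFC was -0.80 ± 0.19, or 1.74-fold lower, in water mice (adjusted p = 0.019, edgeR) and -0.44 ± 0.19 in ZnSO4 mice (adjusted p = 0.15).

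The Cpt1a result depended on single libraries. Without water + PBS replicate 1 its LFC was -0.51 in water mice (adjusted p = 0.042) and -0.46 in ZnSO4 mice (adjusted p = 0.027, edgeR). The call in water mice was lost without water + Dex replicate 1 or 3 (adjusted p = 0.077 and 0.084). Cpt2, which encodes the inner-membrane partner enzyme, had an LFC of -0.43 ± 0.14 with Dex in water mice (adjusted p = 0.073, edgeR) and of -0.23 ± 0.14 in ZnSO4 mice. Its Dex groups lay below its PBS groups in both arms. The value in water mice was -0.55 without water + PBS replicate 2 (adjusted p = 0.024) and -0.25 without water + PBS replicate 1 (adjusted p = 0.23, edgeR). Acsl1, whose product makes the acyl-CoA in the first place, had LFCs of 0.55 ± 0.17 and 0.51 ± 0.16 with Dex in the 2 arms (adjusted p = 0.061 and 0.062, edgeR). It passed in water mice without ZnSO4 + PBS replicate 1 or 2 (adjusted p = 0.03 and 0.035) and in ZnSO4 mice without ZnSO4 + PBS replicate 1 (adjusted p = 0.016). Crat, a short-chain carnitine transferase gene, had LFCs of 0.04 and -0.37 ± 0.13 (adjusted p = 0.076 for the latter).

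The genes of the mitochondrial oxidation cycle and its auxiliary enzymes showed no call for Dex apart from the isomerase gene Eci2. None of the 7 genes for acyl-CoA dehydrogenases and electron transfer (Acadvl, Acadl, Acadm, Acads, Etfa, Etfb, Etfdh) and none of the 5 genes for the hydratase, dehydrogenase and thiolase steps (Hadha, Hadhb, Hadh, Echs1, Acaa2) passed for Dex in either arm by edgeR. Of these 12, only Echs1 in water mice had an unadjusted p under 0.05. Their LFCs ran from -0.25 for Acads to 0.21 for Echs1 in water mice and from -0.27 for Acads to 0.29 for Acaa2 in ZnSO4 mice. Etfb shares 58.2% of its exonic bases with an annotated gene on the same strand, and 42.9% of those of Acadvl lie opposite Dvl2, so both counts are uncertain.

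Eci2 (ENSMUSG00000021417, chr13:34977748-35027096), which shifts the double bond of unsaturated chains so that they can enter the cycle, rose in ZnSO4 mice. It stood at 583, 412 and 424 counts in water + PBS, 567, 686 and 761 in water + Dex, 520, 415 and 424 in ZnSO4 + PBS, and 950, 738 and 887 in ZnSO4 + Dex. The 2 ZnSO4 groups did not overlap, while in water mice the control of replicate 1 overlapped the lowest Dex mouse. The LFC was 0.92 ± 0.16 in ZnSO4 mice (adjusted p = 0.0023, edgeR) and 0.51 ± 0.16 in water mice (adjusted p = 0.071). The latter was 0.68 (adjusted p = 0.024) without water + PBS replicate 1. The interaction for Eci2 had an LFC of 0.42 ± 0.22 (adjusted p = 0.95, edgeR), so a difference between the arms was not shown. Eci1, Ech1 and Decr1, the other auxiliary enzymes, had LFCs of Dex between -0.12 and 0.14 in the 2 arms.

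Bdh1 (ENSMUSG00000046598, chr16:31422280-31458901), which interconverts the ketone bodies acetoacetate and beta-hydroxybutyrate, rose by a small and even step. It stood at 1385, 1201 and 1291 counts in water + PBS, 1534, 1617 and 1667 in water + Dex, 1127, 1134 and 1286 in ZnSO4 + PBS, and 1414, 1486 and 1584 in ZnSO4 + Dex. The groups did not overlap in either arm. The LFC was 0.31 ± 0.08, or 1.24-fold, in water mice (adjusted p = 0.028, edgeR) and 0.34 ± 0.08, or 1.26-fold, in ZnSO4 mice (adjusted p = 0.015, edgeR). The call in water mice was lost without water + PBS replicate 2 or 3 (adjusted p = 0.11 and 0.08) or water + Dex replicate 2 or 3 (adjusted p = 0.1 and 0.13). The call in ZnSO4 mice was lost without ZnSO4 + PBS replicate 1 or 2 (adjusted p = 0.071 and 0.063) or ZnSO4 + Dex replicate 3 (adjusted p = 0.051).

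Acot1 and Acot2 encode cytosolic and mitochondrial thioesterases that free fatty acids from CoA, and neither passed with all 12 libraries. With Dex in ZnSO4 mice, Acot1 went from 20.7 to 46.3 counts in PBS mice to 75.9 to 94.0 in Dex mice (LFC 1.19 ± 0.53, adjusted p = 0.18, edgeR), and Acot2 from 54.7 to 65.0 to 96.4 to 133 (LFC 0.87 ± 0.39, adjusted p = 0.18). The groups did not overlap for either gene. In water mice the control of replicate 1 was the highest of all 6 mice for both, at 114 and 129 counts. Without that library Acot2 passed in both arms, its LFC in water mice going from 0.64 to 1.46 (adjusted p = 0.0023, edgeR) and that in ZnSO4 mice being 0.85 (adjusted p = 0.011, edgeR). The LFC of Acot1 in water mice went from -0.11 to 0.85 (adjusted p = 0.3). The counts of both genes are uncertain, since 22.7% of the 31-base stretches of Acot1 and 37.3% of those of Acot2 occur in other genes, mostly in each other, and reads that map to more than one place were not counted.

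Counting the genes whose groups did not overlap gave a similar picture for Dex. The 3 Dex mice lay above the 3 PBS mice for 8 of the 33 genes in water mice (24.2%) and below them for 3 (9.1%), against 15.2% and 14.5% of all genes tested. In ZnSO4 mice they lay above for 11 (33.3%) and below for 5 (15.2%), against 14.2% and 14.9% of all genes. With the further condition of an LFC over 0.8 in size, which the study also used, 4 genes were higher and 0 lower in water mice (2.79% and 1.64% of all genes) and 4 were higher and 1 lower in ZnSO4 mice (3.41% and 2.4%). With the same limit ZnSO4 changed 0 of the 33 genes in either direction, against 0.747% higher and 0.954% lower in PBS mice and 0.696% higher and 1.2% lower in Dex mice over all genes. Averaged over both arms in the same fit, Dex raised 7 of the 33 genes (21.2%) and lowered 3 (9.1%), against 10.4% and 11.2% of all genes. This average added Acsl1, with an LFC of 0.53 ± 0.12 (adjusted p = 0.0066, edgeR), and Cpt2, with -0.33 ± 0.10 (adjusted p = 0.029, edgeR), to the genes called in an arm. In the average without water + PBS replicate 1 these genes kept their calls. Acot1, Acot2 and Acaa2 passed there as well (LFC 1.01, 1.16 and 0.24, adjusted p = 0.031, 0.00022 and 0.027, edgeR).

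With ZnSO4 few of these genes passed the test in a single arm. In PBS mice, 1 of the 33 tested genes (3.0%) rose with ZnSO4, namely Ppargc1a, against 2.11% of all genes, and 0 fell, against 2.54%. By unadjusted p under 0.05, 7 genes were higher and 3 lower, against 9.54% and 10.3% of all genes, and DESeq2 called 3 higher and 1 lower, against 3.22% and 3.4%. In Dex mice, 1 gene (3.0%) rose with ZnSO4, namely Acaa2, against 1.83% of all genes, and 0 fell, against 2.54%. By unadjusted p under 0.05, 7 genes were higher and 1 lower, against 9.56% and 9.57% of all genes, and DESeq2 called 1 higher and 0 lower, against 2.53% and 3.88%. The median LFC over the 33 genes was -0.01 in PBS mice and 0.06 in Dex mice, with medians over all genes of -0.01 and 0.01. The former was 0.24 without water + PBS replicate 1.

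**Figure D3:**
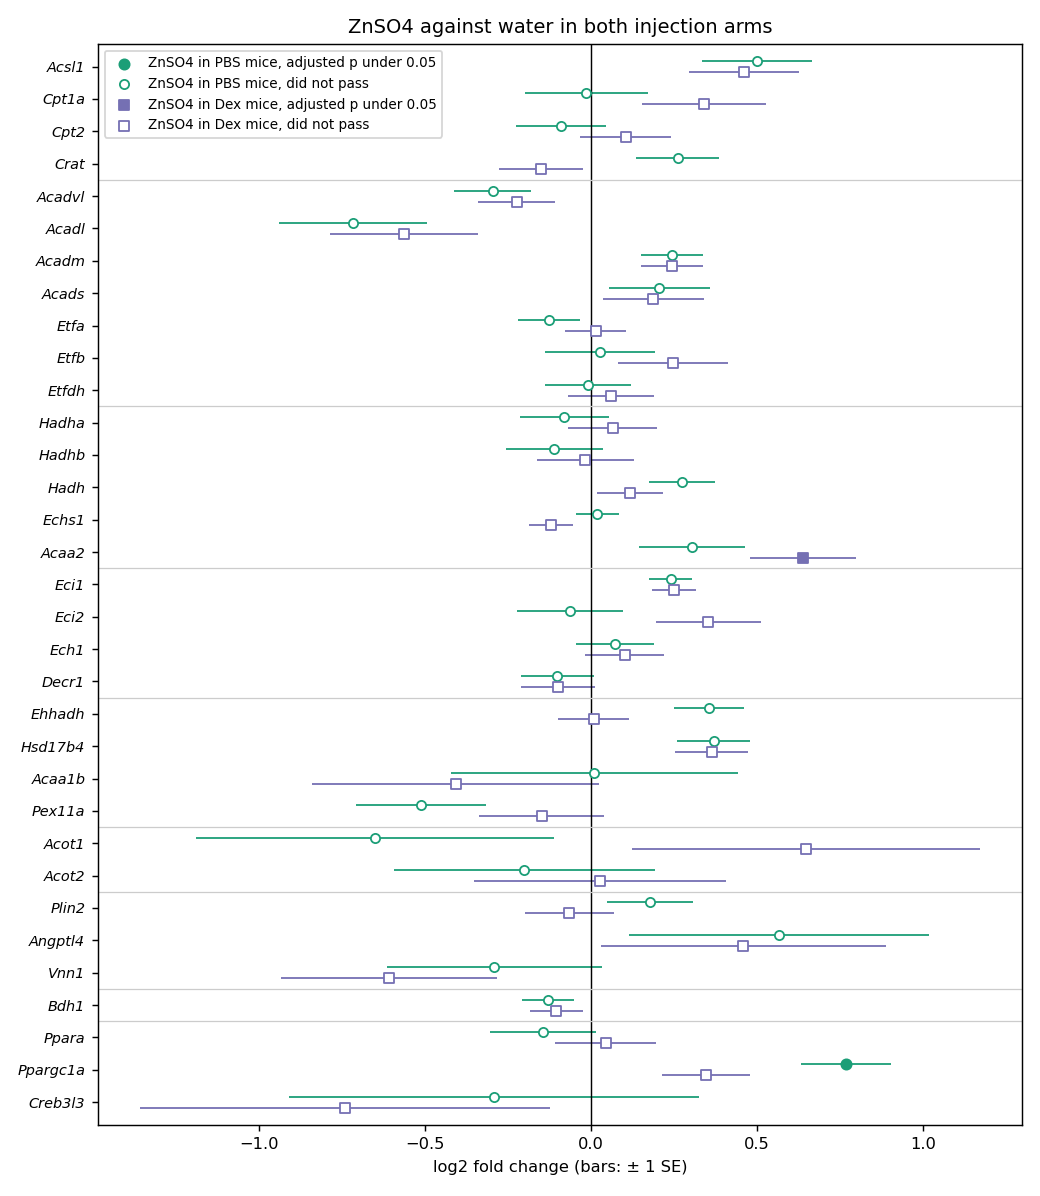
LFC of ZnSO4 against water for the 33 tested genes, in the same order, with circles for PBS mice and squares for Dex mice; bars are ± 1 SE and filled symbols mark an adjusted p under 0.05. Most values lie within 0.3 of 0, Ppargc1a and Acaa2 carry the only filled symbols at 0.77 and 0.64, and Acadl lies to the left in both arms.

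Acaa2 (ENSMUSG00000036880) encodes the mitochondrial thiolase of the last step of the cycle. It stood at 1104, 726 and 656 counts in water + PBS, 701, 855 and 846 in water + Dex, 1076, 962 and 1033 in ZnSO4 + PBS, and 1249, 1277 and 1216 in ZnSO4 + Dex. The ZnSO4 + Dex mice were the highest of all 12. The LFC of ZnSO4 was 0.64 ± 0.16 in Dex mice (adjusted p = 0.047, edgeR) and 0.30 ± 0.16 in PBS mice (adjusted p = 0.32). The value in PBS mice was 0.58 and passed without water + PBS replicate 1 (adjusted p = 0.019, edgeR). The call in Dex mice rested on all 9 libraries outside water + PBS. Its adjusted p was 0.17, 0.1 and 0.11 without water + Dex replicate 1, 2 or 3, it was 0.067, 0.061 and 0.063 without ZnSO4 + PBS replicate 1, 2 or 3, and it was 0.11, 0.11 and 0.079 without ZnSO4 + Dex replicate 1, 2 or 3. Without water + PBS replicate 1, which is no part of this comparison but of the shared spread, it was 0.0038.

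Averaged over the PBS and Dex mice, ZnSO4 raised 6 of the 33 genes (18.2%) and lowered 1 (3.0%), against 6.24% and 6.52% of all genes tested. Ppargc1a had the largest averaged LFC of the 6, 0.56 ± 0.09 (adjusted p = 0.0029, edgeR). Acsl1, Acaa2 and Hsd17b4 had averaged LFCs of 0.48 ± 0.12, 0.47 ± 0.11 and 0.37 ± 0.08 (adjusted p = 0.02, 0.019 and 0.01, edgeR). Eci1, the isomerase related to Eci2, and Acadm, the medium-chain dehydrogenase, both had an averaged LFC of 0.24 (adjusted p = 0.0057 and 0.033, edgeR). The gene that fell was Acadl, the long-chain dehydrogenase, at -0.64 ± 0.16 (adjusted p = 0.022, edgeR). Leaving out water + PBS replicate 1, Cpt1a passed in the average (LFC 0.32, adjusted p = 0.047, edgeR) and Acadm did not. The other genes kept their calls, with Acadl at -0.43 (adjusted p = 0.0087, edgeR).

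Acadl stood at 3101, 1768 and 1389 counts in water + PBS, 1979, 1880 and 1728 in water + Dex, 1300, 1263 and 1247 in ZnSO4 + PBS, and 1322, 1109 and 1354 in ZnSO4 + Dex. All 6 ZnSO4 mice lay below all 6 water mice. Within PBS mice its LFC was -0.72 ± 0.22 (adjusted p = 0.096, edgeR) and within Dex mice -0.56 ± 0.22 (adjusted p = 0.19, edgeR). Without water + PBS replicate 1, the former was -0.30 and the latter -0.56 with an adjusted p of 0.019. Without water + PBS replicate 3 the value in PBS mice passed, with an adjusted p of 0.025. The groups did not overlap upwards for 7 genes in PBS mice (21.2%, against 12.4% of all genes) and for 8 in Dex mice (24.2%, against 12.7%), and downwards for 2 in each (6.1%, against 12.9% and 13.2%).

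The 2 × 2 design also asks whether the Dex effect differed between water and ZnSO4 mice. The interaction passed for 0 of the 33 genes, as for 0 of all genes tested, in edgeR, and for 0 of the 33 in DESeq2, which called 4 higher and 2 lower of all genes. Ehhadh, Ppargc1a and Crat had an unadjusted p under 0.05, with interaction LFCs of -0.35 ± 0.15, -0.42 ± 0.19 and -0.41 ± 0.18 (adjusted p = 0.95 for each, edgeR). For Ppara the interaction was 0.19 ± 0.22 and for Angptl4 -0.11 ± 0.62. A call in a single arm, as for Cpt1a, Eci2 or Acaa2, was therefore not shown to be a difference between arms.

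**Figure D4:**
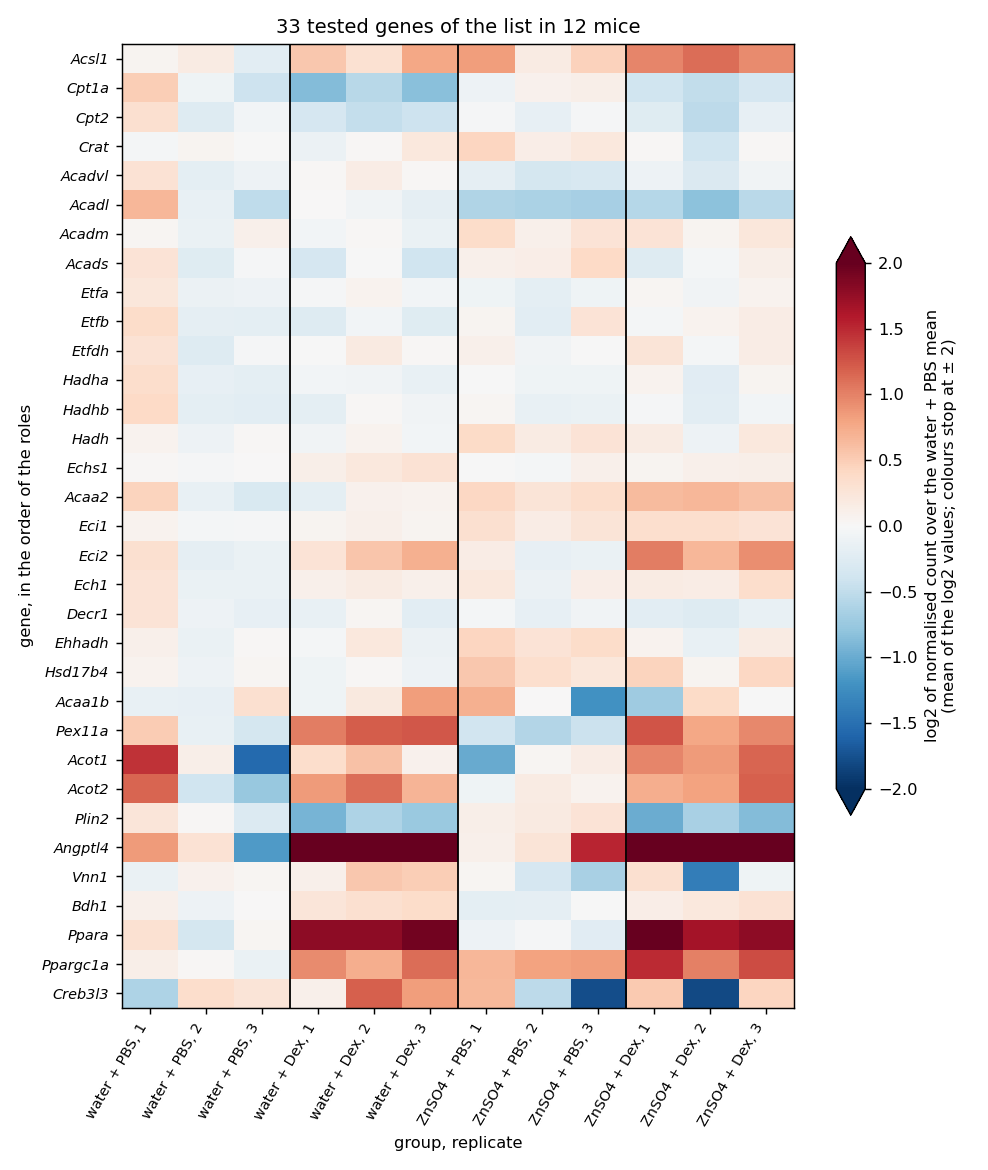
log2 of the normalised count over the mean of the water + PBS mice for the 33 tested genes (rows, in order of their role) in the 12 mice (columns), with colours that stop at ± 2. Ppara and Angptl4 are dark red in the 6 Dex mice, and the column of water + PBS replicate 1 is warm for most rows, this library being the highest of its group for 27 of the 33 genes.

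Per length, as TPM (counts divided by exonic length and scaled to a common total), the oxidation enzymes led the list in water + PBS mice. Acadl had the highest level at 225 ± 90.1 TPM (SD, n = 3), followed by Etfa at 201 ± 21.8 and Hadh at 196 ± 8.67. These 3 means differed by less than the spread of Acadl. Cpt1a stood at 80.8 TPM and Bdh1 at 72.2 TPM. The regulators were lower, with Ppara at 15.5 TPM and Ppargc1a at 7.14 TPM. Acot1 and Acaa1b were the lowest of the tested genes, at 3.16 and 2.66 TPM.

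A wider list of 123 other genes of the pathway, of which 113 were tested, gave the surroundings of these results. Dex raised 17 (15%) and lowered 3 (2.65%) of the 113 in water mice, against 5.41% and 4.51% of all genes, and raised 13 (11.5%) and lowered 10 (8.85%) in ZnSO4 mice, against 6.65% and 7.08%. ZnSO4 raised 5 (4.42%) and lowered 3 (2.65%) in PBS mice, against 2.11% and 2.54% of all genes, and raised 5 (4.42%) and lowered 4 (3.54%) in Dex mice, against 1.83% and 2.54%. The strongest Dex responses included Pdk4, whose kinase shuts off pyruvate oxidation, with LFCs of 2.21 and 3.03 in water and ZnSO4 mice (adjusted p = 0.023 and 0.0035, edgeR), the former being 3.48 without water + PBS replicate 1. Klf15, a glucocorticoid-induced transcription factor of fasting metabolism, had LFCs of 2.68 and 2.90 (adjusted p = 0.00013 and 6e-05, edgeR). Txnip, which restrains glucose uptake, had LFCs of 1.85 and 2.16 (adjusted p = 1.1e-05 and 3.6e-06, edgeR).

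The thioesterase genes Acot5 and Acot6, neighbours of Acot1 in their family, also rose with Dex in both arms. Acot6 went from 23.8 to 37.1 counts in water + PBS to 196 to 257 in water + Dex (LFC 2.94), and its LFC in ZnSO4 mice was 2.36. Acot5 had 2 reads in all in water + PBS and 316 in water + Dex, and 16 in ZnSO4 + PBS and 314 in ZnSO4 + Dex. Plin4, another lipid droplet gene, rose in water mice (LFC 1.88, adjusted p = 0.01, edgeR), while Lpin1, a lipin that also assists PPARalpha, rose 2.83-fold in ZnSO4 mice (adjusted p = 0.0011, edgeR) and 2.30-fold in water mice (adjusted p = 0.0058, edgeR). In ZnSO4 mice the groups overlapped for Plin4 (LFC 0.96, adjusted p = 0.13), which is also abundant in fat cells.

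With ZnSO4 the wider list moved in other genes. In PBS mice the glycerol channel gene Aqp7 went from 54.5 to 83.6 counts to 239 to 269 (LFC 1.82, adjusted p = 0.0062, edgeR). The cytochrome P450 gene Cyp4f16, the peroxisomal oxidase gene Acox2 and the catalase gene Cat had LFCs of 1.43, 1.28 and 0.82 (adjusted p = 0.0036, 0.0027 and 0.0015, edgeR). In Dex mice Cyp4f16 had an LFC of 0.93 and the lipid droplet gene Plin3 fell by 0.87 on the log2 scale (adjusted p = 0.029 and 0.013, edgeR).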

How the data were processed

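Ileum RNA of 12 mice was sequenced single-end from stranded libraries on an Illumina NextSeq. Per the study's methods and the submitters' processing notes, the authors trimmed reads with Trimmomatic, aligned them to mm10 with HISAT2 2.0.4 and counted uniquely mapped reads per Ensembl gene with featureCounts; the annotation release and strand setting are not given in the sources used here. The deposited values are raw counts, used as deposited. Symbols came from GENCODE M21 for 54723 of 54838 genes. Testing used edgeR 4.0.16 in R 4.3.3 (TMM, filterByExpr with a minimum count of 10, 1 quasi-likelihood fit of 4 group means) with Benjamini-Hochberg adjustment over 15938 genes, which held 99.8% of the counts; a call is an adjusted p under 0.05. DESeq2 1.42.0, other normalisation factors and filters, the 2 groups alone, a replicate block, a B cell covariate and leaving out each library were alternatives; the averaged effects and the wider list without water + PBS replicate 1 were added after seeing the data. The fit was tested on simulated data with known changes. An exact permutation test of 3 against 3 mice cannot go below p = 0.1, so single-gene permutation was not used. The labels do not say that replicates came from separate cages or days, and p-values measure only the spread between these libraries. No 2 libraries of a group were duplicates.

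The genes, the wider list, the marker lists and the motifs were chosen with earlier results of these data known. Per-mouse values are given for genes that passed in any of the 4 comparisons, at most 6 per comparison and direction; of the wider list, genes that passed with an LFC over 0.8 in size are named, at most 6 per comparison, apart from some that are not reported here. Acadl and the genes that did not pass but are given by value were chosen after their values were seen. TPM used the exonic length in GENCODE. Promoters came from a RefSeq table (GRCm38.p6); sequences of genes on chromosome 18 are not reported here.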

Additional observations from a re-analysis of the deposited data

How the results depend on the processing

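No call changed direction in any alternative. The calls for Ppara, Angptl4, Pex11a and Plin2 with Dex in both arms, for Eci2 with Dex in ZnSO4 mice, and for Ppargc1a with Dex in water mice and with ZnSO4 in PBS mice were kept in each, except that an LFC over 0.8 in size left out Plin2 in water mice and Ppargc1a in PBS mice. The number of genes that fell with Dex in water mice (2) was 1 with the 2 groups alone and 0 with an LFC over 0.8 required. It was 3 averaged over both arms and 1 to 3 when a library was left out. Over all genes 719 of 15938 fell, 669 of 15177 with the 2 groups alone and 261 past the LFC limit. All-gene numbers were 1779 averaged, and 401 to 831 of 16181 to 16302 when a library was left out. Cpt2 also fell with Dex in water mice with DESeq2, a replicate block and a B cell covariate (adjusted p = 0.046, 0.033 and 0.045). With DESeq2, Eci2 also rose with Dex in water mice (adjusted p = 0.038). Acsl1 rose with DESeq2 in water and in ZnSO4 mice (adjusted p = 0.02 and 0.032). The number that fell with Dex in ZnSO4 mice (1) was 2 with DESeq2, with upper-quartile factors and with the 2 groups alone. It was 3 averaged over both arms and 1 to 2 when a library was left out. Over all genes 1129 fell, with 1262, 1153 and, of 15360 tested, 701 in those settings. All-gene numbers were 1779 averaged and 730 to 1153 when a library was left out. The number raised by ZnSO4 in PBS mice (1) was 3 with DESeq2, 6 averaged over both arms and 0 with the LFC limit. It was 1 to 2 when a library was left out. Over all genes 337 rose, with 514, 995 and 119 in those settings and 138 to 456 when a library was left out. The number lowered (0) was 1 with DESeq2, 1 averaged and 0 to 1 when a library was left out. Over all genes 405 fell, with 542, 1039 and 140 to 545 in those settings. The number raised by ZnSO4 in Dex mice (1) was 0 with RLE factors, 3 with upper-quartile factors, 6 averaged and 0 with the LFC limit. It was 0 to 1 when a library was left out. Over all genes 291 rose, with 275, 401, 995 and 111 in those settings and 112 to 301 when a library was left out. The number lowered (0) was 1 with the 2 groups alone, 1 averaged and 0 to 1 when a library was left out. Over all genes 405 fell, with 313 of 15158, 1039 and 185 to 460 in those settings. The median LFC, leaving out a library, ran from -0.044 to 0.21 for Dex in water mice and from -0.077 to 0.24 for ZnSO4 in PBS mice, the upper end in each without water + PBS replicate 1. With the 2 groups alone the adjusted p was 0.065 for Cpt1a in water mice, and 0.064 for Ppargc1a and 0.066 for Bdh1 with Dex in ZnSO4 mice, and without the low-count filter it was 0.076 for Bdh1 in water mice. The fit with 2 groups alone has fewer mice to estimate the spread, and elsewhere the cause was not tested.

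Replicate numbers are shared between groups in the labels, but the mice share only a number. Over 18 same-numbered pairs of libraries from different groups, the correlation of deviations from the group mean had a median of -0.06 and ran from -0.36 to 0.51, and over 36 pairs with different numbers the median was 0.0082. With a replicate block the number raised by ZnSO4 in Dex mice was 0, Acaa2 having an adjusted p of 0.071, and Cpt2 passed for Dex in water mice at 0.033.

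Depth limits the omega oxidation genes and Fgf21, which had too few reads for a test, and Acaa1b, Acot1 and Acot2, whose counts are low and lack the reads that map to related genes as well. With 3 mice per group, small changes such as that of Bdh1 depend on single libraries.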

Other observations

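Slc16a1 and Oxct1, which encode the monocarboxylate carrier that moves ketone bodies across membranes and the enzyme that opens their oxidation, were chosen after their values were seen. Slc16a1 stood at 1018 to 1256 counts in water + PBS and 589 to 653 in water + Dex, and at 1104 to 1384 in ZnSO4 + PBS and 641 to 768 in ZnSO4 + Dex. It fell with Dex by 0.89 in water mice and by 0.87 in ZnSO4 mice on the log2 scale (adjusted p = 0.00028 for each, edgeR), in all 6 mice. Oxct1 rose with ZnSO4 by an LFC of 0.56 ± 0.09 in PBS mice (adjusted p = 0.0054, edgeR) and of 0.40 ± 0.09 in Dex mice (adjusted p = 0.026, edgeR), from 3247 to 3785 counts in water + PBS to 4921 to 5788 in ZnSO4 + PBS.

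Pdk4, whose response to Dex is given above, was highest in replicate 1 among the water + PBS mice, at 339 counts against 81.3 and 48.5.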
